A study of Mus musculus with 10 samples.

Results

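The 36 genes described here mark the epithelia that line the ventricles beside the habenula. Of them, 15 are choroid plexus genes (Ttr, Folr1, Kl, Clic6, Prlr, Aqp1, Enpp2, Sostdc1, Otx2, Calml4, Slc4a5, Tmem72, Igfbp2, Cab39l and Slc13a4). The other 21 belong to ciliated ependymal cells (Foxj1, Ccdc153, Tmem212, Rarres2, Dynlrb2, Cfap126, Cfap43, Cfap44, Cfap52, Tekt4, Tekt1, Rsph1, Rsph4a, Pifo, Mia, Dnah5, Dnah9, Dnali1, Spef2, Hydin and Ak7). They were taken by gene symbol from a table of 56691 Ensembl genes, and all 36 had reads in every library. RNA-seq was made from the medial habenula of 10 wild-type mice, with 1 library per mouse. The 6 withdrawal mice had intraperitoneal nicotine ditartrate at 4 mg/kg, given 2 times a day over 14 days, and then saline from day 15. The 4 control mice had saline only, and the tissue of both groups was collected on day 17. The labels give no age, sex or litter. The sample labels name cholinergic neurons from a cell sort, while the series record names brain tissue and no sort. Levels of these genes differed widely between libraries and were low in control 2 for most of them, as the values below show.

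The choroid plexus is a folded epithelium that secretes cerebrospinal fluid. Its cells export transthyretin, a carrier of thyroid hormone and retinol, and move water, chloride, bicarbonate and folate between blood and ventricle. The ependyma is the ventricle's own lining, whose cells carry bundles of motile cilia that stir the fluid. Foxj1 and the RFX factors switch on the motile cilium programme, which includes the dyneins, tektins, radial spokes and central pair proteins of the axoneme, the microtubule core of the cilium. The medial habenula lies directly below the ependyma of the third ventricle and next to its choroid plexus.

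RefSeq promoter windows, from 250 bases before to 50 after an annotated start, were at hand for 27 of the 36 genes, 10 choroid and 17 ciliated. They are in build GRCm38.p6, whereas the deposited counts were made on mm39. The half-site GTTGCC of RFX factors, searched on both strands, stood in a window of 8 of the 17 ciliated genes (47.1%) and 2 of the 10 choroid genes (20%). Over 27025 genes with such windows the share was 14.1%. The windows below are printed because they hold that site in 3 ciliated genes and in Aqp1, the choroid gene whose ratio to Ttr is described further on, and their capitals mark the motifs found.
Pifo (chr3:106001448-106001747, minus strand): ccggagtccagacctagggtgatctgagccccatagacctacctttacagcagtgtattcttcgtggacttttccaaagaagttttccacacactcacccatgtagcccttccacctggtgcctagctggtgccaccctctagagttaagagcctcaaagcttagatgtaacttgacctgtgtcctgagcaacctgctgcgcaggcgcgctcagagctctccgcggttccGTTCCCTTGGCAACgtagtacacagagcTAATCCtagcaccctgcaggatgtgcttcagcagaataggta
Dynlrb2 (chr8:116504765-116505064, plus strand): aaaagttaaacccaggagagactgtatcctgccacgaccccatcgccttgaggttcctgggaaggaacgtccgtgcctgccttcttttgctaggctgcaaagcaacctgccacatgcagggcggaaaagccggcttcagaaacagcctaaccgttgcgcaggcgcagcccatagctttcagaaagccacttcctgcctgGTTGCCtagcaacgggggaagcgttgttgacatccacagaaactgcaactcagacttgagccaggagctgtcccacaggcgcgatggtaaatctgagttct
Ccdc153 (chr9:44240427-44240726, plus strand): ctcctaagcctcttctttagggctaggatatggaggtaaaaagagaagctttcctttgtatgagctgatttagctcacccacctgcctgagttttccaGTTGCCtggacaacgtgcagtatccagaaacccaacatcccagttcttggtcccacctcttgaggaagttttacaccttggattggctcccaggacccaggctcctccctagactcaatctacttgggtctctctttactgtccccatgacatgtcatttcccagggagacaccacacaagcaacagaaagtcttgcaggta
Aqp1 (chr6:55336049-55336348, plus strand): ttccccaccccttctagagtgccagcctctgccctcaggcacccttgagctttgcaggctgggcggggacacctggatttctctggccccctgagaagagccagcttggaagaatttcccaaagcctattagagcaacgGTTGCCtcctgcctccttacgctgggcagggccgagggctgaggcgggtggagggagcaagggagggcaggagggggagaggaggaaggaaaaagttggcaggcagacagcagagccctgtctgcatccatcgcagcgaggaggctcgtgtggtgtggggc
The Pifo window held the only paired RFX site among the 27 genes with windows, GTTNCC followed after 2 bases by GGNAAC and overlapping the half-site, which 0.529% of all genes had. Its second block of capitals is the Otx homeobox letters TAATCC, which 1 of 17 ciliated genes, 1 of 10 choroid genes (Otx2) and 8.14% of all genes had. The forkhead letters GTAAACA were in windows of Ak7 and Cfap43 among the ciliated genes and of Prlr among the choroid genes, against 4.05% of all genes. A match is a string of letters and not a shown binding site.

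Library totals ran from 15023448 to 22026333 counts. CPM (read counts divided by the TMM-scaled size of their library) is the unit of levels below. A list of 9 cholinergic medial habenula markers summed to 29.4 CPM in withdrawal 2 and 27.0 CPM in control 2, against 1041 to 1593 CPM in the other 8 libraries. Control 2 also held 1815 CPM of 8 hippocampal and cortical markers, where the other libraries held 210.5 to 503.1 CPM. Both libraries kept their group labels, and results that rest on them are given with and without them.

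Choroid transcripts were abundant in 8 of the 10 libraries and nearly missing from the others. The 15 choroid genes together made up 5361, 23750, 469, 8383, 4074 and 17140 CPM in withdrawal 1 to 6, against 15140, 353, 13590 and 17920 CPM in control 1 to 4. Withdrawal 3 and control 2 stood far below the rest, and withdrawal 2 was the highest. The 21 ciliated genes together made up 519, 514, 814, 611, 525 and 824 CPM in withdrawal 1 to 6, against 571, 75.6, 488 and 670 CPM in control 1 to 4. The ciliated sum was low in control 2 only, and withdrawal 3, poor in choroid transcripts, had the second highest ciliated sum of the 10 libraries. In bulk samples, fewer cells of a type and less RNA per cell cannot be told apart.

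**Figure D1:**
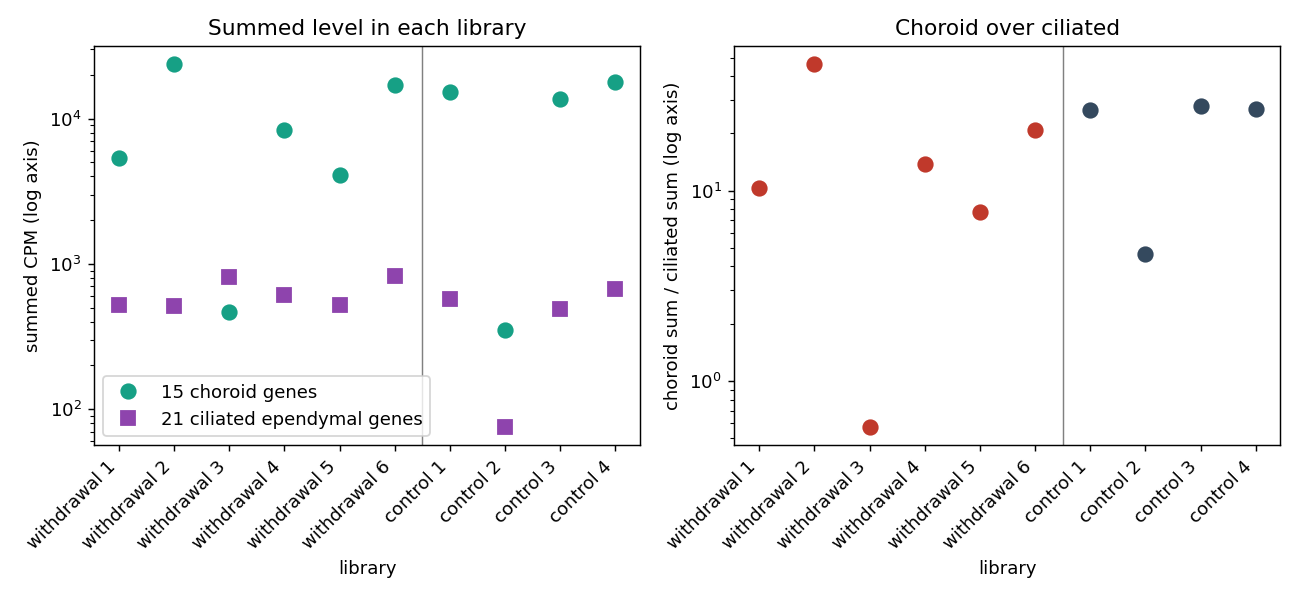
Left, summed CPM (log axis) of the 15 choroid genes (circles) and the 21 ciliated genes (squares) in each of the 10 libraries; right, the choroid sum divided by the ciliated sum (log axis). Choroid sums span 353 to 23750 CPM, ciliated sums stay between 488 and 824 CPM outside control 2, and the ratio is 26.5, 27.8 and 26.8 in control 1, 3 and 4.

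Per gene length, in FPKM (fragments scaled by length and library total), Ttr stood first among the choroid genes, averaging 4130 FPKM over the withdrawal libraries and 4882 FPKM over the control libraries. Enpp2, which makes autotaxin, the secreted enzyme that forms lysophosphatidic acid, came next at 683.8 FPKM in withdrawal and 823.5 FPKM in control. The remaining 13 averaged between 4.85 FPKM (Tmem72) and 51.7 FPKM (Clic6) over all libraries. Transcripts of Ttr formed 80.2% to 82.7% of the choroid FPKM in 8 libraries, but 27.2% in withdrawal 3 and 28.7% in control 2. Among the ciliated genes the average over all libraries ran from 1.42 FPKM for Dnah5 to 24.9 FPKM for Foxj1, with Tmem212 at 23.4, Ccdc153 at 20.8, Rsph1 at 20.6 and Dynlrb2 at 20.01 FPKM. The 2 long dynein heavy chains (Dnah5 and Dnah9), Hydin, Tekt4 and Spef2 were the lowest, with Spef2 the highest of them at 2.61 FPKM.

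Of the secreted choroid proteins, Ttr lay between 38.9 and 11730 CPM in the withdrawal libraries with a median of 3260 CPM, against 7182, 27.3, 6426 and 9067 CPM in control 1 to 4. Enpp2 lay between 243 and 9371 CPM in withdrawal (median 2726), against 6145, 217, 5513 and 6835 CPM in the controls. In both genes withdrawal 3 and control 2 were the low libraries, withdrawal 2 was the high one, and the groups overlapped. Sostdc1, a secreted inhibitor of BMP and Wnt signalling, lay between 10.02 and 126 CPM in withdrawal (median 39.8), against 90.4, 2.68, 78.6 and 98.1 CPM in the controls. Igfbp2, which binds insulin-like growth factors, lay between 12.9 and 117 CPM in withdrawal (median 51.0), against 103, 11.2, 76.0 and 107 CPM in the controls. Their order of libraries was much the same, with overlapping groups.

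The receptors and carriers followed. Folr1, the folate receptor that loads folate into cerebrospinal fluid, lay between 4.66 and 86.2 CPM in withdrawal (median 26.8), against 46.6, 0.279, 47.5 and 53.5 CPM in the controls. Kl, the alpha-Klotho coreceptor for FGF23, lay between 3.46 and 715 CPM in withdrawal (median 211), against 519, 53.7, 472 and 568 CPM in the controls. Prlr, the prolactin receptor, lay between 12.6 and 220 CPM in withdrawal (median 68.6), against 126, 4.13, 125 and 158 CPM in the controls. Control 2 was the lowest library for Folr1 and Prlr, whereas Kl was lowest in withdrawal 3 and kept 10.4% of the other controls' median in control 2. For all 3 the groups overlapped.

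Among channels and transporters, Aqp1, the apical water channel, lay between 0.852 and 93.6 CPM in withdrawal (median 28.9), against 39.7, 0.279, 37.0 and 43.8 CPM in the controls. Clic6, a chloride intracellular channel family member, lay between 13.6 and 415 CPM in withdrawal (median 129), against 293, 2.34, 282 and 341 CPM in the controls. Withdrawal 3 and control 2 were again the low libraries of each gene and the groups overlapped. Slc4a5, a sodium bicarbonate cotransporter, reached 171 CPM and Slc13a4, a sodium sulfate cotransporter, 126 CPM, both in withdrawal 2. Otx2, the homeobox factor that choroid plexus development needs, lay between 45.9 and 102 CPM in withdrawal (median 56.3), against 81.1, 0.167, 78.3 and 95.5 CPM in the controls. Otx2 was thus low in control 2 but not in withdrawal 3, which had 47.6 CPM. Tmem72, a membrane protein, Calml4, a calmodulin-like protein, and Cab39l, a partner of the kinase LKB1, complete the set, averaging 80.5, 21.8 and 134 CPM in withdrawal, against 83.5, 20.9 and 135 CPM in control.

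**Figure D2:**
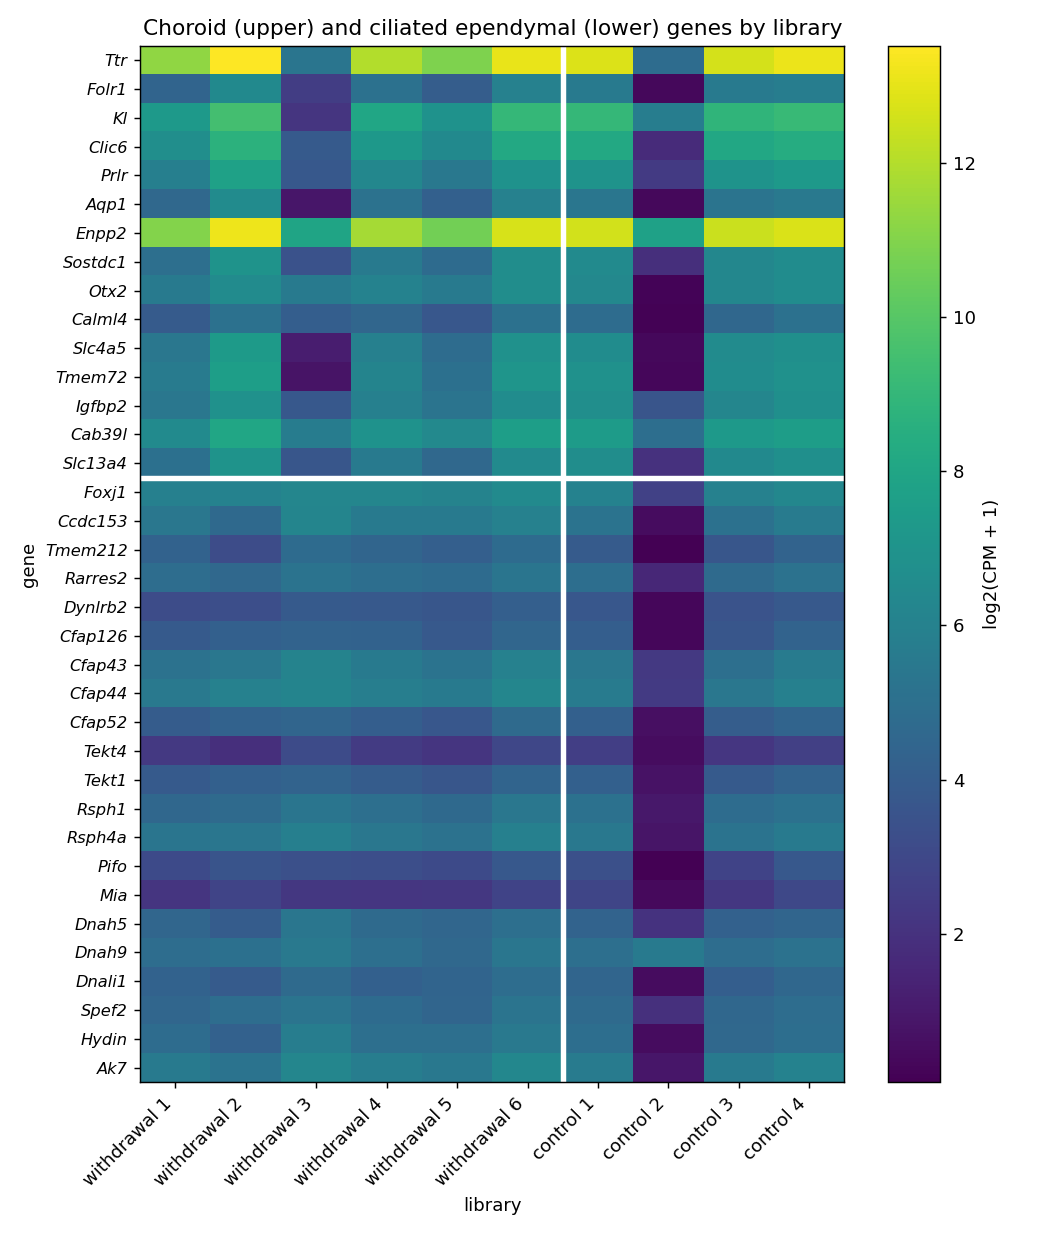
Level of each of the 36 genes in each library as log2(CPM + 1) by colour, choroid genes above and ciliated genes below the white line, withdrawal libraries to the left and control libraries to the right. Control 2 is dark for most genes of both sets, and Enpp2 (217 CPM), Kl (53.7 CPM) and Dnah9 (47.8 CPM) are the brightest there. Withdrawal 3 is the darkest withdrawal library for most choroid genes and for no ciliated gene.

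The 2 low libraries lacked choroid transcripts to different degrees. In withdrawal 3, the choroid genes stood at a median of 14.0% of the middle value of the other withdrawal libraries. They ranged from 0.976% for Ttr, with Tmem72 at 0.993%, Kl at 1.32% and Slc4a5 at 1.999%, to 41.8% for Cab39l, 72.3% for Calml4 and 73.2% for Otx2. The same library held 44.2 CPM of 7 pineal markers, against 0.558 to 6.998 CPM in the other 9 libraries. Pineal cells also express Otx2; of their list, 1 of 7 genes was detected in every library, and the part of such cells in the Otx2 value was not tested. In control 2 the choroid genes stood at a median of 0.801% of the other controls, with the highest remainders for Cab39l (17.3%), Igfbp2 (10.9%) and Kl (10.4%). Otx2, at 3 reads, and Calml4, at 2 reads, were close to nothing there. Withdrawal 2 was the highest of all libraries for 13 of the 15 choroid genes, the exceptions being Otx2 (withdrawal 6) and Calml4 (control 4).

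Even without control 2 and withdrawal 3, the highest library exceeded the lowest by 2.21-fold (Otx2) to 6.31-fold (Slc4a5) over the choroid genes. The ciliated genes differed over the same 8 libraries by 1.47-fold (Foxj1) to 3.20-fold (Tmem212). As a measure over all 10 libraries, the within-group standard deviation (SD) of log2(CPM + 1) had a median of 1.97 for the choroid genes and 1.07 for the ciliated genes. It was 0.235 for all 18246 genes tested, of which 99.8% had a smaller SD than the choroid median and 97.6% a smaller one than the ciliated median.

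The ciliated genes start with their regulator. Foxj1, the forkhead factor of motile cilia, lay between 61.1 and 89.7 CPM in withdrawal (median 70.0), against 65.8, 5.30, 63.2 and 76.7 CPM in control 1 to 4. Only control 2 was low, and the other controls lay inside the withdrawal range. Dynlrb2, a dynein light chain, lay between 8.17 and 16.6 CPM in withdrawal (median 12.5), against 12.3, 0.223, 10.6 and 13.1 CPM in the controls. Dnah5, an outer arm dynein heavy chain, lay between 14.9 and 40.3 CPM in withdrawal (median 24.0), against 19.1, 3.18, 18.3 and 20.7 CPM in the controls. Withdrawal 2 was the low withdrawal library of Dnah5, and the other 5 withdrawal libraries exceeded every control. Dnali1, an axonemal dynein light intermediate chain, had medians of 19.3 CPM in withdrawal and 18.3 CPM in control.

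Rsph1, a radial spoke head protein, lay between 22.5 and 40.8 CPM in withdrawal (median 28.4), against 32.8, 0.948, 26.9 and 33.3 CPM in the controls. Hydin, a central pair protein whose loss in mice causes hydrocephalus, lay between 17.7 and 53.4 CPM in withdrawal (median 30.5), against 29.3, 0.446, 23.9 and 30.0 CPM in the controls. Both were lowest in control 2, and Hydin was highest in withdrawal 3. Rsph4a, a second radial spoke head protein, and Spef2, of the central pair, had withdrawal medians of 40.95 and 27.6 CPM, against control medians of 39.5 and 24.1 CPM. The tektins, filaments inside the axonemal doublets, had withdrawal medians of 16.2 CPM (Tekt1) and 4.18 CPM (Tekt4), against control medians of 15.5 CPM (Tekt1) and 4.29 CPM (Tekt4). Medians of the cilia and flagella associated proteins lay within 17.5 to 58.3 CPM in withdrawal (Cfap43, Cfap44, Cfap52 and Cfap126), against 14.0 to 45.04 CPM in control. Ak7, an axonemal adenylate kinase, and Pifo, a protein of cilium disassembly, had withdrawal medians of 51.0 and 9.11 CPM, against control medians of 47.7 and 7.55 CPM.

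Ccdc153, a dynein regulatory complex component and a common ependymal marker, lay between 24.3 and 72.1 CPM in withdrawal (median 47.6), against 35.6, 0.446, 33.1 and 49.1 CPM in the controls. Tmem212, a membrane protein enriched in ependyma, lay between 8.21 and 26.7 CPM in withdrawal (median 19.8), against 14.53, 0.0558, 11.98 and 19.3 CPM in the controls. Withdrawal 2 was the lowest withdrawal library for both, as it was for Dnah5 and Hydin. Rarres2, the secreted chemoattractant chemerin, lay between 23.5 and 38.4 CPM in withdrawal (median 28.9), against 29.3, 2.01, 25.5 and 34.7 CPM in the controls. Mia, a secreted SH3 domain protein, lay between 3.37 and 6.18 CPM in withdrawal (median 3.76), against 6.29, 0.335, 3.71 and 6.96 CPM in the controls. Mia was the one ciliated gene with its highest value in control 4, and for every gene of this paragraph the groups overlapped.

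Control 2 was the lowest library for 20 of the 21 ciliated genes, at a median of 3.20% of the other controls. The exception was Dnah9, an outer arm dynein heavy chain, which had 47.8 CPM in control 2 (856 reads) and was highest there, at 154% of the other controls' median. An antisense gene, Gm12296, overlaps annotated exons of Dnah9 and had 124 counts over all libraries together. The strand setting of the counting was not given, and the part of antisense reads in the Dnah9 value was not tested. Withdrawal 3 was, in contrast, at a median of 141% of the other withdrawal libraries over the ciliated genes, ranging from 102% to 193%, the last for Tekt4. Either withdrawal 3 or withdrawal 6 was the highest of all libraries for 19 of the 21 genes. A list of 3 subcommissural organ markers, a specialised ependyma near the habenula, was also highest in these libraries. It summed to 13.6 to 548 CPM in withdrawal (548 in withdrawal 3, 291 in withdrawal 6), against 8.48 to 104 CPM in control, with 3 of 3 genes detected in every library; its part in the ciliated values was not tested.

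Withdrawal and control were compared with edgeR's quasi-likelihood test over all 10 libraries, adjusted by Benjamini-Hochberg over 18246 genes. None of the 36 genes passed an adjusted p of 0.05, while 26 genes (0.142%) did over the whole table. At an unadjusted p under 0.05 the count was also 0 of 36, against 15.4% of all genes, and DESeq2 called 0 of 36, with 407 genes (2.23%) in all. No gene had groups that did not overlap, against 3.25% of all genes. Median fitted differences of the choroid and the ciliated genes had opposite signs. Genes of a list largely varied together across libraries, so their signs are not separate observations. The choroid genes had a median log2 change, withdrawal minus control, of -0.21, with 3 of 15 above 0, and the ciliated genes had a median of 0.46, with 20 of 21 above 0. Over all genes the median was 0.00481, with 50.7% above 0.

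The errors exceeded nearly all these differences. Ttr had a log2 change of -0.24 with a standard error (SE) of 1.27, and Aqp1, the highest choroid value, one of 0.36 (SE 1.08). Kl and Slc13a4 were lowest at -0.44 (SE 0.99) and -0.43 (SE 0.82). Of the ciliated genes, Tmem212 had 0.77 (SE 0.78), Dnah5 0.76 (SE 0.45), Ccdc153 0.73 (SE 0.75) and Hydin 0.70 (SE 0.72), and Dnah9 alone was negative at -0.09 (SE 0.20). The smallest adjusted p of edgeR's test was 0.818 among choroid genes (Slc13a4) and 0.42 among ciliated genes (Dnah5). Control 2 weighs on the ciliated values: leaving it out gave a log2 change of 0.06 for Foxj1, against 0.44 with it.

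**Figure D3:**
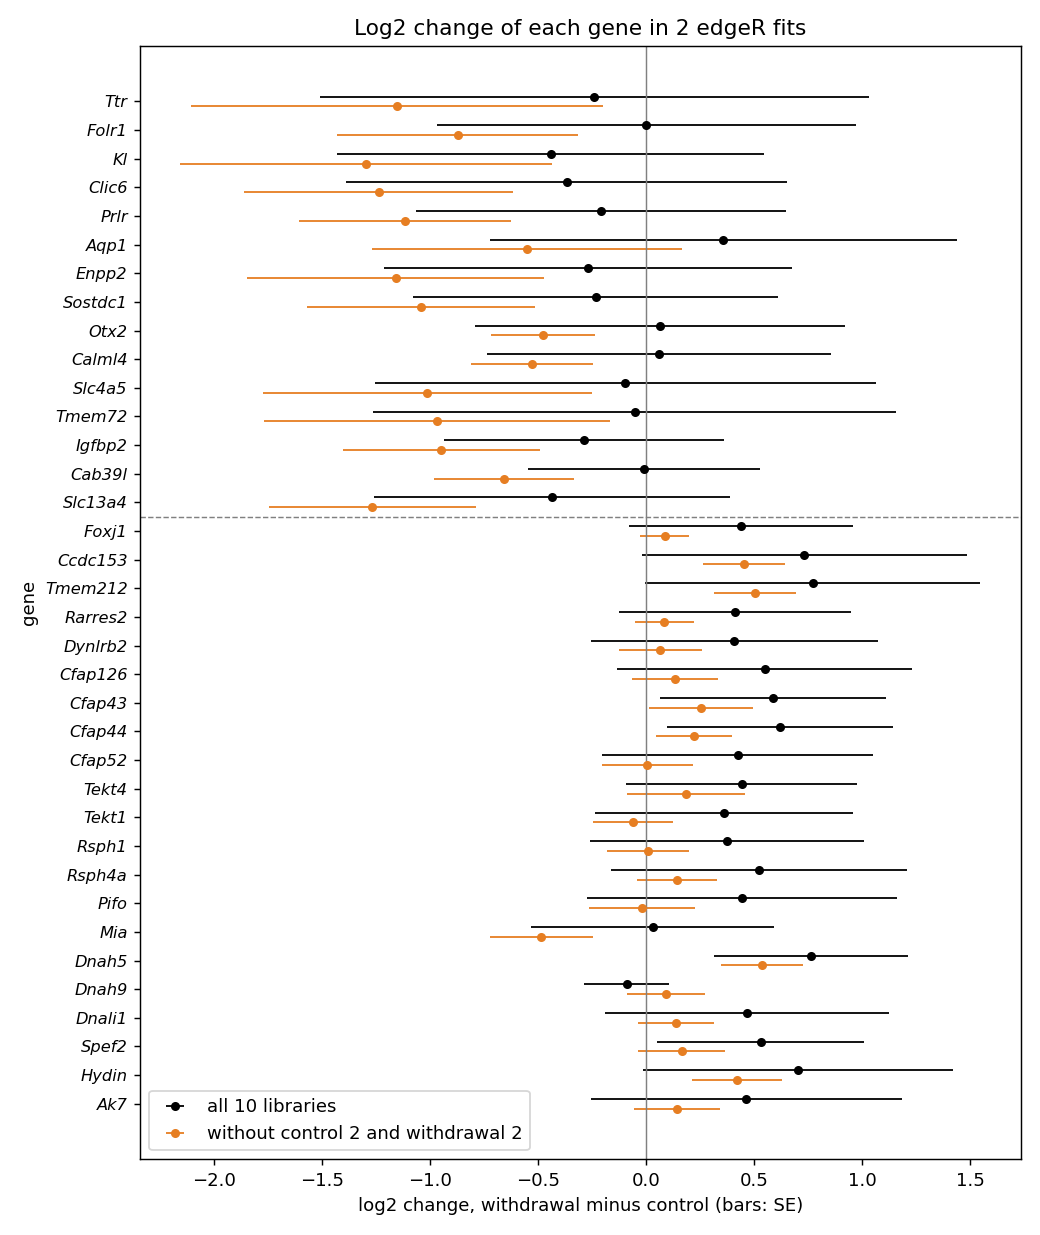
Log2 change, withdrawal minus control, of each gene (points) with its standard error (bars) in edgeR fits over all 10 libraries (black) and without control 2 and withdrawal 2 (orange), choroid genes above the dashed line. Without those libraries all 15 choroid genes lie below 0 and 18 of 21 ciliated genes above 0, and none passes an adjusted p of 0.05 in either fit.

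Without withdrawal 2 and control 2, the libraries with few habenular transcripts, 5 withdrawal and 3 control libraries remained. There 2164 genes (11.9%) passed in all, but 0 of the 36 genes. All 15 choroid genes were then negative, with a median log2 change of -1.01 and values between -1.30 (Kl) and -0.48 (Otx2), and 48.0% of all genes were negative. Of the ciliated genes 18 of 21 were positive, with a median of 0.14. An unadjusted p under 0.05 was reached by 5 of the 36 genes, against 29.0% of all genes. Lower in withdrawal were Prlr (-1.12, SE 0.49) and Slc13a4 (-1.27, SE 0.48), with adjusted p of 0.164 and 0.112 by edgeR. Higher were Dnah5 (0.54, SE 0.19), Tmem212 (0.51, SE 0.19) and Ccdc153 (0.45, SE 0.19), with adjusted p of 0.0929, 0.11 and 0.15 by edgeR. Groups did not overlap for 2 of the 36 genes, against 21.9% of all genes. Prlr was at 12.6 to 122 CPM in withdrawal, below the 125 to 158 CPM in control, and Dnah5 at 21.8 to 40.3 CPM in withdrawal, above the 18.3 to 20.7 CPM in control. DESeq2 on the same 8 libraries called 1 of the 36, Dnah5, at an adjusted p of 0.0413, among 3047 genes (16.7%) in all. The medians moved with which withdrawal library was left out: without control 2 and withdrawal 3, with withdrawal 2 kept, they were -0.38 for the choroid genes and 0.03 for the ciliated genes. Above 0 were then 1 of 15 choroid genes and 11 of 21 ciliated genes.

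The balance between the epithelia was taken as the ratio of their summed CPM. The choroid sum was 10.3, 46.2, 0.576, 13.7, 7.75 and 20.8 times the ciliated sum in withdrawal 1 to 6, against 26.5, 4.67, 27.8 and 26.8 times in control 1 to 4. In the 2 low libraries most of the choroid sum was Enpp2, with 243 of 469 CPM in withdrawal 3 and 217 of 353 CPM in control 2. Which cells gave those Enpp2 reads was not tested. Apart from control 2 the controls lay close together, and 5 of the 6 withdrawal libraries lay below them while withdrawal 2 lay above. A list of 10 meningeal fibroblast markers, all detected in every library, moved in the same direction as the choroid sum. It summed to 53.2 to 279 CPM in withdrawal, lowest in withdrawal 3 and highest in withdrawal 2, against 38.3 to 324 CPM in control, lowest in control 2; its part in the choroid values was not tested.

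Choroid genes varied together across libraries. Because control 2 and withdrawal 3 stood apart, Pearson's r and Spearman's rho of log2(CPM + 1) with Ttr were computed over the other 8 libraries. The plan had named all 10 libraries, and only a description of their order if they fell into separate clusters. The 2-sided exact permutation p-values were adjusted by Benjamini-Hochberg over the other 18245 genes tested. The choice of libraries, here and for Foxj1 below, the exact test and this adjustment were made after the data were seen. All 14 other choroid genes passed with Ttr by r, from 0.929 (Aqp1) to 0.998 (Enpp2), against 4.08% of all genes. By rho, from 0.905 to 1.00, 11 passed, against 1.02% of all genes. Unadjusted, all 14 were under 0.05 by each measure, but so were 22.9% of all genes by r and 18.8% by rho. With a further library left out the 14 remained under an unadjusted 0.05 in each of 8 cases. After adjustment 0 passed without withdrawal 1, 2, 4 or 5, where 0.00% of all genes did. Without another, 10 to 14 passed, against 0.839% to 4.41% of all genes. With 7 libraries few orders exist, so a gene can pass only where many genes reach the smallest exact p-values. Without the 2 libraries farthest from the median of Ttr, r still lay between 0.817 (Aqp1) and 0.991 (Enpp2). Their slopes against Ttr differed. Kl moved by 1.00 and Enpp2 by 0.97 log2 units per log2 unit of Ttr, whereas Otx2 moved by 0.46, Calml4 by 0.56, Cab39l by 0.59 and Igfbp2 by 0.67. Of the 21 ciliated genes 0 passed with Ttr by r or rho. Unadjusted, 5 were under 0.05 by r (Tekt1, Mia, Cfap52, Dnah9 and Spef2, r from 0.708 to 0.853) and 6 by rho, the same genes and Pifo, beside the 22.9% and 18.8% of all genes given above. Ccdc153, Tmem212, Dnah5 and Hydin had negative r, between -0.307 and -0.19.

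Against Foxj1, over the 9 libraries without control 2, 0 of the 35 other genes passed after the same adjustment over all genes, and 0.00% of all genes did, by r and by rho. At an unadjusted exact permutation p under 0.05 stood 18 of the 20 other ciliated genes by r, against 7.45% of all genes, and 17 by rho, against 7.30%. Dynlrb2 had the highest r (0.905, exact p = 0.0004216, adjusted p = 0.361), before Rarres2 (0.866), Rsph1 (0.863) and Ak7 (0.863). None of the 15 choroid genes was under an unadjusted 0.05 with Foxj1, with r from -0.081 to 0.401. The ciliated count rested in part on withdrawal 6: by r it was 8 without that library, against 4.07% of all genes, and 13 to 18 without any one of the others. As a ratio to Foxj1, 0 of the 20 genes had groups that did not overlap, against 2.26% of all genes. An edgeR fit of the same 9 libraries, with the mean level of 50 further cilium genes as covariate and chosen after the data were seen, called 20 genes (0.110%), 0 of the 36 among them. None of the 36 reached an unadjusted p under 0.05 there, against 10.9% of all genes. Mia had the lowest r with Foxj1 among the ciliated genes, 0.332 over 9 libraries, and an r of 0.817 with Ttr over 8 libraries. Tekt1, Cfap52 and Dnah9 also had a higher r with Ttr (0.853, 0.81 and 0.775) than with Foxj1 (0.694, 0.75 and 0.692). The remaining ciliated genes went the other way. The differences between these correlations were not tested.

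Relative to Ttr, the groups overlapped for 13 of the 14 other choroid genes. Over the 5 withdrawal and 3 control libraries rich in choroid transcripts, Enpp2 averaged 813 ± 29.8 CPM per 1000 CPM of Ttr in withdrawal and 822 ± 59.5 in control (SD, n = 5 and n = 3). Sostdc1 averaged 12.1 ± 1.04 in withdrawal and 11.9 ± 0.94 in control on the same scale. Aqp1 was the 1 gene whose groups did not overlap, against 1.28% of all genes. It had 9.28, 7.98, 8.59, 8.99 and 7.25 CPM per 1000 CPM of Ttr in withdrawal 1, 2, 4, 5 and 6, against 5.53, 5.76 and 4.83 in control 1, 3 and 4. Every withdrawal library lay above every control library, and the mean ratio was 1.57-fold higher in withdrawal. Folr1 was at 7.81 ± 0.53 in withdrawal and 6.59 ± 0.75 in control, and Kl at 62.6 ± 2.04 in withdrawal and 69.4 ± 5.91 in control, with overlap in both (SD, n = 5 and n = 3).

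**Figure D4:**
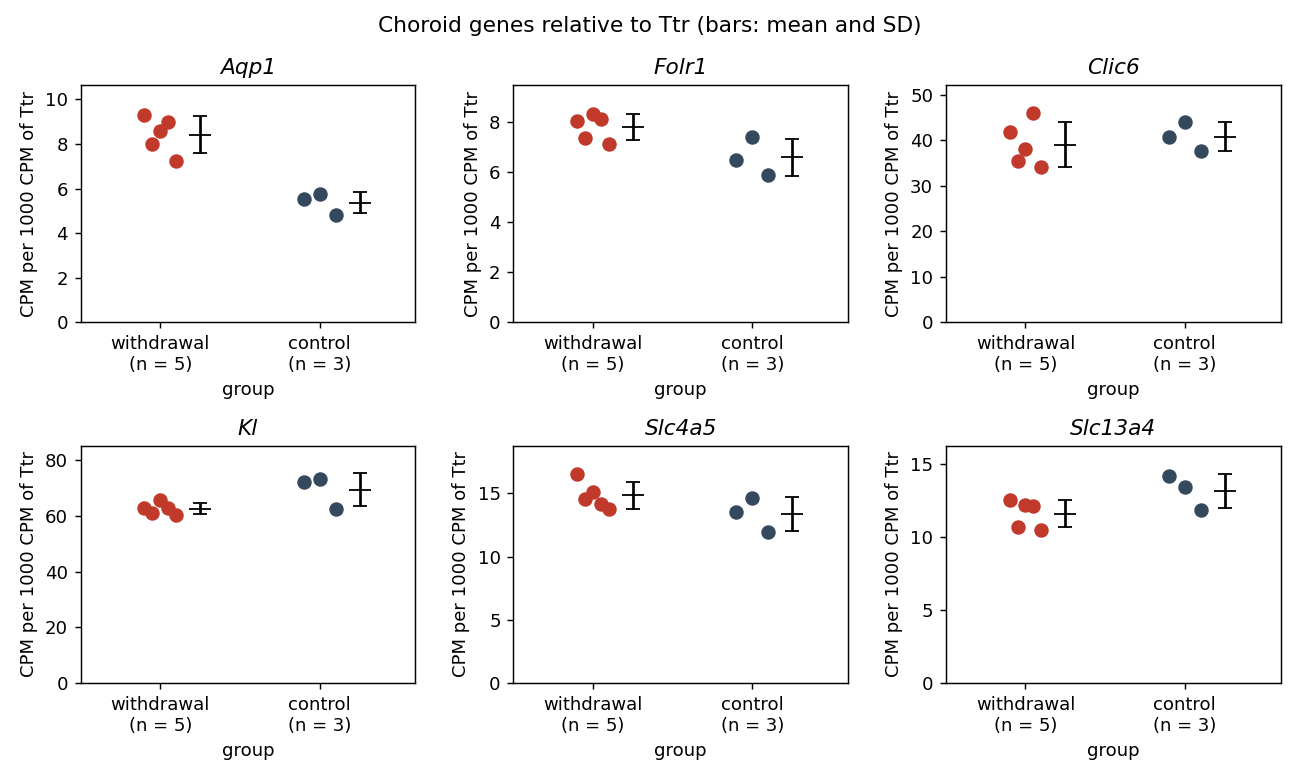
CPM per 1000 CPM of Ttr for 6 choroid genes in the 5 withdrawal and 3 control libraries rich in choroid transcripts, with mean and SD beside the points. For Aqp1 all withdrawal points (7.25 to 9.28) lie above all control points (4.83 to 5.76), and the other 5 genes overlap between groups.

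The Aqp1 ratio was also taken over the other choroid genes. These vary closely with Ttr (r from 0.971 for Otx2 to 0.998 for Enpp2), and Aqp1 was picked from the same 8 libraries. The ratios below are therefore no independent check. With each of the 14 other choroid genes as denominator in turn, Aqp1 was higher in withdrawal without overlap for 10, and its mean ratio lay between 1.21-fold and 1.77-fold. Next came Kl and Slc13a4, each lower in withdrawal without overlap for 7 of 14 denominators. The same counts were not made over all genes. Leaving out each library in turn kept the Aqp1 difference between 2.78 and 3.34 CPM per 1000 CPM of Ttr, against 3.05 with all 8. In an edgeR fit of those 8 libraries, with the mean level of 24 further choroid genes as covariate, Aqp1 had a log2 change of 0.46 (SE 0.09) and Slc13a4 of -0.35 (SE 0.07). Their adjusted p were 0.144 and 0.155 by edgeR, so neither passed, where 16 genes (0.0877%) did, and 0 of the 36 genes passed. An unadjusted p under 0.05 was reached there by 6 of 15 choroid genes, 1 higher (Aqp1) and 5 lower (Slc13a4, Kl, Clic6, Igfbp2 and Sostdc1), and by 1 of 21 ciliated genes (Cfap44), against 9.13% of all genes. These ratios and this fit were chosen after the data were seen. Red blood cells also carry Aqp1, and 5 globin and heme genes, all detected in every library, summed to 60.1 to 634 CPM in those withdrawal libraries, against 44.2 to 75.8 CPM in those controls. Their part in the Aqp1 ratio was not tested.

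Other genes of both programmes gave a similar picture. Of 24 further choroid genes 0 passed over all 10 libraries, with a median log2 change of -0.07 and 6 above 0. The smallest unadjusted p belonged to Slc26a11, an anion transporter (0.63, SE 0.32), Cldn1, a tight junction protein (-0.89, SE 0.89), Car14, a carbonic anhydrase (-0.31, SE 0.52), and Slc29a4, a monoamine transporter (-0.23, SE 0.41). Without control 2 and withdrawal 2, 1 of the 24 passed, against 11.9% of all genes, and the median log2 change was -0.88 with 2 of 24 above 0. Slc26a11 was higher in withdrawal (log2 change 0.53, SE 0.14, edgeR adjusted p = 0.036), at 17.8, 16.9, 14.4, 14.2 and 11.9 CPM in withdrawal 1, 3, 4, 5 and 6, against 10.5, 10.03 and 10.6 CPM in control 1, 3 and 4. Its level did not drop in withdrawal 3 as the choroid genes did. Relative to Ttr, Kcnj13, a potassium channel, and Wfdc2, a secreted protease inhibitor, were higher and Cldn1 lower in withdrawal without overlap, 3 of 24 genes against 1.28% of all genes. Cldn1 had 4.75 ± 0.41 CPM per 1000 CPM of Ttr in withdrawal and 7.14 ± 0.41 in control (SD, n = 5 and n = 3). In the fit with choroid level as covariate Cldn1 was lower (log2 change -0.77, SE 0.09, edgeR adjusted p = 0.0384), but it passed in only 2 of the 8 fits that left out a further library, with adjusted p between 0.0113 and 0.19. Meningeal cells also express Cldn1, and their 10 markers summed to 71.7 to 279 CPM in those withdrawal libraries, against 248 to 324 CPM in those controls; their part was not tested.

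Of 49 further cilium genes tested 0 passed over all 10 libraries, with a median log2 change of 0.45 and 47 above 0, and 2 reached an unadjusted p under 0.05, against 15.4% of all genes. These were Rfx3, a ciliogenic RFX factor (-0.83, SE 0.32), and Tekt2, a tektin (0.61, SE 0.26), followed by Ccdc151 (0.45, SE 0.24), a dynein arm docking protein, and Drc1 (0.46, SE 0.27), of the dynein regulatory complex. Without control 2 and withdrawal 2, 2 of the 49 passed, against 11.9% of all genes, and the median was 0.14 with 33 of 49 above 0. Without control 2 and withdrawal 3 it was 0.06 with 31 above 0. Rfx3 was lower in withdrawal (log2 change -1.08, SE 0.15, edgeR adjusted p = 0.00407), at 43.4 to 57.2 CPM in the 5 withdrawal libraries, against 88.5, 142 and 91.4 CPM in control 1, 3 and 4. The 2 libraries left out had 136 CPM (withdrawal 2) and 141 CPM (control 2) of Rfx3, both above all 5 of those withdrawal libraries. Cfap77 was higher in withdrawal (log2 change 0.70, SE 0.20, edgeR adjusted p = 0.0481), at 4.97, 7.46, 6.35, 5.33 and 8.22 CPM in withdrawal 1, 3, 4, 5 and 6, against 3.70, 3.47 and 4.66 CPM in control 1, 3 and 4. Cfap46 (0.59, adjusted p = 0.0525) and Dnah12 (0.74, adjusted p = 0.0624) came next by edgeR.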

How the data were processed

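The authors deposited raw read counts per gene and FPKM for each library, per the file headers. Reads had gone through HISAT2 2.2.1, HTSeq 0.6.1 and cutadapt 1.9.1 on build mm 39, per the submitters' processing notes; no source used here names the annotation or the strand setting. Exons of 11 of the 36 genes overlap another annotated gene in GENCODE M21, which could share reads. Symbols covered 52073 of 56691 identifiers.

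Genes with a mean of at least 10 counts over the 10 libraries (18246, all 36 genes among them) were tested with edgeR 4.0.16 (quasi-likelihood test, TMM scaling, R 4.3.3), 2-sided, with no covariate and Benjamini-Hochberg adjustment over all genes at 0.05. DESeq2 1.42.0 and limma 3.58.1 on log2(FPKM + 1) or log2(FPKM + 0.1) were alternatives. CPM used TMM factors. Correlations, their exact permutation p-values and the adjustment were computed with numpy 2.4.6, with ranks from scipy 1.17.1. The adjustment over all genes and the choice of libraries were made after the data were seen. The edgeR script was tested on simulated data. Sequences are from RefSeq.

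Single values were given for a fixed list of 19 genes and any called gene, and for the 4 further choroid and 4 further cilium genes with the smallest p and any called one. The 36 genes and the lists were chosen with earlier results of these data known. Replicates are mice, 1 library each. Depth ran from 15023448 to 22026333 counts, and PCR reads without molecular identifiers make counting error a lower bound.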

Additional observations from a re-analysis of the deposited data

Results flagged for a closer look

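The values of 5 measures in control 2 stood far from the other 3 controls by Dixon's criterion for groups of 4. Folr1 was at 0.279 CPM in control 2, with the others at 46.6 to 53.5 CPM. Aqp1 was at 0.279 CPM, with the others at 37.0 to 43.8 CPM. Slc4a5 was at 0.279 CPM, with the others at 93.9 to 108 CPM. Dnah5 was at 3.18 CPM, with the others at 18.3 to 20.7 CPM. The log2 of the choroid sum over the ciliated sum was 2.22 in control 2, with the others at 4.73 to 4.80. These 5 were found among 78 groups of values, and chance flags about 1 in 20.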

How the results depend on the processing

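No choroid gene of the 15 passed under any of 23 alternatives, and of the 21 ciliated genes only Dnah5 passed, 1 gene with DESeq2 without control 2 and withdrawal 2 (0.53, adjusted p = 0.0413). Genes called over the whole table, 26 with all libraries, were 7 with library totals in place of TMM, 407 with DESeq2, 14 and 9 with limma on log2(FPKM + 1) and log2(FPKM + 0.1), 2164 without control 2 and withdrawal 2 (3047 with DESeq2), 14 without control 2 and withdrawal 3, 16 with choroid level as covariate, and 4 to 852 with each library left out, 852 without withdrawal 2. Further choroid genes called were 1 of 24 without control 2 and withdrawal 2, against 11.9% of all genes, and 1 with DESeq2 there, against 16.7%. With the covariate 1 was called, against 0.0877% of all genes. Further cilium genes called without those 2 libraries were 2 of 49, against 11.9% of all genes, and 6 with DESeq2, against 16.7%. With the replicate number as block 0 genes passed, with 2209 at an unadjusted p under 0.05 by edgeR. Deviations of same-numbered libraries from their group means had correlations of 0.025, 0.299, -0.137 and 0.293. Whether the numbers stand for a shared batch was not tested. Under the block Dnah5 was at 0.93 (unadjusted p = 0.0497) and Aqp1 at -0.42.

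None of the log2 changes that changed sign was called. Ttr was at 0.24 and 0.25 with limma at pseudocounts 1 and 0.1, and at -0.73 to 0.0795 with each library left out. Clic6 was at 0.11 and 0.38 with limma, and Slc13a4 at 0.0453 at pseudocount 0.1. Without control 2 and withdrawal 2, by edgeR and DESeq2, Aqp1 was at -0.55 and -0.55, Otx2 at -0.48 and -0.48, Mia at -0.49 and -0.49 and Dnah9 at 0.0928 and 0.0894. Without control 2 and withdrawal 3 Otx2 was at -0.27 and Mia at -0.32. Dnah9 was at 0.0192 with library totals and 0.00081 with limma. With each library left out Aqp1 ran from -0.13 to 0.61, Otx2 from -0.35 to 0.33, Mia from -0.36 to 0.36 and Dnah9 from -0.19 to 0.0848. Adjusted over the 35 other genes, 10 ciliated genes followed Foxj1, 18 with library totals and 0 to 11 with each library left out. All 14 choroid genes followed Ttr in every case under this adjustment, which gives no share over all genes. It was planned, but for all 10 libraries and not for the 9 and 8 used. Adjusted over all genes the 14 followed Ttr with 8 libraries, against 4.08% of all genes. Without withdrawal 1, 2, 4 or 5, 0 of the 14 did, and 0.00% of all genes. For Foxj1, 0 ciliated genes passed after adjustment over all genes, where 0.00% of all genes did, and 18 unadjusted, against 7.45% of all genes. The log2 ratio of the sums differed by -1.55 to -0.12 between groups with each library left out. The cause of each change was not tested. Counts of 5 reads or fewer in control 2 for 10 of the 36 genes limit its low values.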

Other observations

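The subcommissural organ, an ependymal gland beside the pineal stalk, varied between libraries. Sspo, which encodes its secreted product SCO-spondin, was at 11.3, 12.2, 540, 146, 113 and 283 CPM in withdrawal 1 to 6, against 100, 8.03, 17.5 and 23.1 CPM in control 1 to 4. Withdrawal 3 to 6 lay above every control, and withdrawal 1 and 2 lay below control 1, 3 and 4. The log2 change was 2.31 (SE 1.15, edgeR adjusted p = 0.359), so it did not pass. Tph1, which makes the serotonin from which pineal cells form melatonin, was at 34.9 CPM in withdrawal 3 and at most 3.87 CPM in any other library.

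Gmnc, a regulator that starts multiciliated cell formation, was listed with the cilium genes but varied as the choroid genes did. It was at 5.09, 36.5, 4.06, 11.5, 4.70 and 26.6 CPM in withdrawal 1 to 6, against 27.3, 2.62, 24.5 and 27.8 CPM in control 1 to 4. It was named after its values were seen.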
